A study of Mus musculus with 48 samples.

Results

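The Serpin protease inhibitor family was followed in the livers of mice that lack the clock gene Bmal1 (Arntl) in adipocytes and of WT mice. Members were the genes of the count table whose symbol begins with Serpin and that had 10 or more counts in at least 3 libraries. Of 52 such symbols among 22354 genes, 31 met this rule. The 30 described here, over which all counts of members are given, were 17 of clade A, 5 of clade B, 2 of clade F, and 1 each of clades C, D, E, G, H and I. Serpini1 was just inside, with 10 or more counts in 5 libraries, and Serpini2, Serpina3h and Serpina3e-ps were just outside, with 1 library each. The study used female C57BL/6J mice, 25 labelled WT and 23 labelled KO, with livers taken at 6 collection times, ZT0, ZT4, ZT8, ZT12, ZT16 and ZT20, where ZT counts hours on the housing light schedule. There were 4 mice of each genotype at each time, except 5 WT and 3 KO mice at ZT16. Both genotypes had lived in 12 h of light and 12 h of darkness, then spent 1 day in constant darkness, and had fasted for 24 h. The labels do not name the promoter that drove the deletion in adipocytes, and mice of 28.75 to 105 weeks of age were included. The labels give each library an age and a weight.

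Most serpins trap a protease by offering an exposed reactive centre loop as bait. The protease cuts the loop, the serpin changes shape, and the enzyme is left covalently bound and distorted. Hepatocytes secrete many of them into plasma, where they limit coagulation, fibrinolysis, complement and neutrophil proteases. A few have lost inhibition and carry hormones or fold collagen instead, and those of clade B mostly stay inside cells.

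Libraries held 12841969 to 13009797 counts without Alb, the serum albumin gene. Arntl, deleted in another tissue, was at 18.4 ± 14.1 CPM (counts scaled to a common library size) in WT liver and 18.05 ± 13.2 in KO liver (SD, n = 25 and 23), so it does not check the genotype labels here. KO mice weighed 24.2 ± 3.57 g and WT mice 21.8 ± 1.997 g. Mean age matched between genotypes except at ZT16, and ranged from 42.1 weeks at ZT20 to 65.1 weeks at ZT4 in KO, so time and age were not balanced. The slope of log2 abundance on transcript GC content varied between libraries, from -0.81 to 0.63 per 10 points. Its means were 0.091 in WT and -0.099 in KO. The hepatocyte markers summed to 13310 CPM or more in every library, and no marker of the 13 lists used was at 0 in all libraries. The libraries WT ZT0 replicate 3 and KO ZT20 replicate 1 stood apart in neutrophil markers, at 1771 and 1767 CPM against 483 CPM or less in the other libraries. Lcn2, which is also among the acute phase genes used below, was the most abundant of these markers. Its means were 109 ± 253.5 CPM in WT and 92.3 ± 252.5 CPM in KO (SD). The next, S100a9, was at 14.6 ± 34.8 and 13.35 ± 43.4 CPM. The part of neutrophils in these sums was not tested. In KO ZT0 replicate 2, markers of exocrine pancreas summed to 309.6 CPM, against at most 22.2 CPM elsewhere. That library held all 10 counts of Serpini2, a serpin known from pancreas, which were the only ones in the study.

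The 5 Serpina1 genes encode mouse forms of alpha-1-antitrypsin, the main plasma inhibitor of neutrophil elastase, and lie with 11 other members in a cluster on chromosome 12 (mm9 chr12:104854885-105652539). Their coding sequences were 96.29% to 98.47% identical, and 86 of 1239 aligned bases differed among them (6.94%). In the window of 60 bases with the most differences, 18 columns differed (30%). These sequences show where the genes can be told apart, and this is the stretch that encodes the reactive centre loop. They are given 5′ to 3′ on the coding strand from GENCODE M21 (GRCm38, minus strand), in coding exons, with bases that differ among the genes in capitals.
Serpina1a: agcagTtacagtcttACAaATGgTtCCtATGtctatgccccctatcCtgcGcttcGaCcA
Serpina1b: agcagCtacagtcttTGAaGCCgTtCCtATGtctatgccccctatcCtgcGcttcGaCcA
Serpina1c: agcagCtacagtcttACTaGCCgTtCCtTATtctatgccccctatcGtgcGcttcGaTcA
Serpina1d: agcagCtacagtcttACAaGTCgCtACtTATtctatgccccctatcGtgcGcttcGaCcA
Serpina1e: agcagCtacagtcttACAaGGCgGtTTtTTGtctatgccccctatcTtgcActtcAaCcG
The stretch lies at chr12:103853757-103853816 for Serpina1a, chr12:103728324-103728383 for Serpina1b, chr12:103895094-103895153 for Serpina1c, chr12:103763762-103763821 for Serpina1d and chr12:103947100-103947159 for Serpina1e. It is in exon 6 of the Serpina1a transcript and in exon 5 of the other transcripts. Of all runs of 50 bases in the transcript, 74.2% in Serpina1c, 67.4% in Serpina1a, 50.9% in Serpina1d, 35.8% in Serpina1b and 35.6% in Serpina1e also occur in another gene. How reads matching several genes were counted is not given in the sources used here, so the split of counts among Serpina1a to Serpina1e is uncertain. Serpina11 shares 43.9% of its runs with the gene model Gm28577, and the Serpina3 genes share 4.25% to 19.1%. Serpinb1a shares 3.42%, with Serpinb1b, Serpinb1c and a pseudogene. Serpine2, Serpina6, Serpina7, Serpina12, Serpinc1, Serpinf1, Serpinf2, Serping1 and Serpinh1 share none.

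Levels between genes were compared as CPM per kilobase of transcript, averaged over 48 libraries. Serpina1b was the most abundant at 4062 CPM per kb, followed by Serpina3k at 3404, Serpina1d at 2522, Serpina1c at 2126 and Serpina1a at 1775. Serpina3k belongs to the mouse relatives of antichymotrypsin. Serpina1b alone gave 23.3% and Serpina3k 22.8% of the counts of these members. A gap followed to Serpina3m at 517 CPM per kb, Serpinc1 (antithrombin, the plasma inhibitor of thrombin and factor Xa) at 482, and Serping1 (C1 inhibitor of complement and kallikrein) at 449. The place of Serpinc1 depends on the transcript length used, 4970 bases against 1581 for Serpina1a. Before division by length their mean counts per library were 30930 and 36220, so this gap is not one in counts. Serpinf2 (alpha-2-antiplasmin) was at 353, Serpind1 (heparin cofactor II, a thrombin inhibitor) at 273, and Serpinf1 (pigment epithelium-derived factor, which inhibits no protease) at 266 CPM per kb. Serpini1, the neuronal serpin neuroserpin, was lowest at 0.093 CPM per kb, or 4.92 counts per library on average. Neighbours in this order had overlapping ranges over mice, with 2 exceptions. The lowest mouse for Serpina1a, at 1039 CPM per kb, was above the highest for Serpina3m, at 904, and the lowest for Serpinb6b, at 0.304, was just above the highest for Serpini1, at 0.298. These members together took 2.26% to 4.28% of a library's counts. That share averaged 3.11 ± 0.44% in WT and 2.997 ± 0.41% in KO (SD, n = 25 and 23), a difference smaller than the spread between mice.

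**Figure D1:**
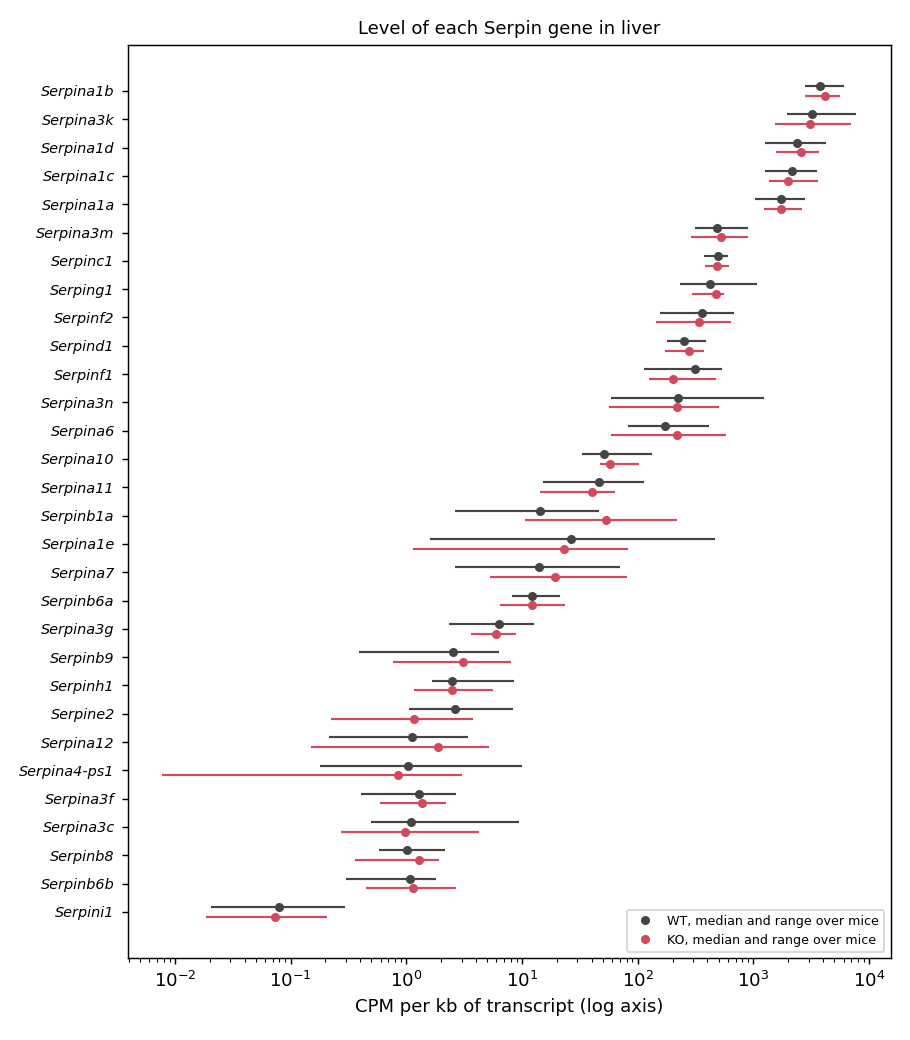
Level of each of 30 Serpin genes in CPM per kilobase of transcript (log axis), with the median (point) and range (line) over 25 WT mice (grey) and 23 KO mice (red). A minimum of 0 CPM (Serpina4-ps1 in 1 KO mouse) is drawn at 0.01 CPM before division by length. By the mean over all libraries, which is not drawn, Serpina1b leads at 4062 CPM per kb and Serpini1 is lowest at 0.093.

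The spread between mice also differed among members. Antithrombin (Serpinc1) varied least, with a coefficient of variation of 12.6% over 48 libraries, followed by Serpind1 and Serpina1b at 18.03% and 18.06%. Serpina1e varied most, at 183%. It ran from 1.8 to 129 CPM in KO mice, with a median of 36.02, and from 2.54 to 729 CPM in WT mice, with a median of 41.9. The highest value came from 1 library, WT ZT16 replicate 4 at 729 CPM, where the other WT mice of that time had 15.8, 20.9, 65.5 and 75.1 CPM. The pseudogene Serpina4-ps1 (121%), Serpina3c (114%) and Serpinb1a (109%) came next.

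The question of the main comparison was which Serpin genes differed between KO and WT liver when averaged over the 6 times. Serpinb1a rose in KO and Serpine2 fell. Thus 2 of 30 members passed an adjusted p of 0.05 (edgeR's quasi-likelihood test, adjusted over 13646 genes by Benjamini-Hochberg), against 1.4% of all genes tested. The 1 member higher in KO compares with a background of 0.623%, and the 1 lower in KO with 0.777%. Serpina12 also had an unadjusted p under 0.05, which makes 3 members against 17.1% of all genes. With DESeq2's size factors the same 2 genes passed, against 1.26% of all genes. Log2 differences in this text are KO minus WT. The members' median log2 difference was 0.0018, against -0.0047 over all genes, with 15 members above 0 and 15 below. Liver is a mixture of cells, and in these bulk samples fewer cells of a type and less RNA per cell cannot be told apart.

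Serpinb1a (mm9 chr13:32933961-32943054) encodes an inhibitor of neutrophil elastase, cathepsin G and proteinase 3 that works inside cells and is also known as a factor released by liver. Its level in WT mice ran from 5.09 to 88.4 CPM, with a median of 27.3. In KO mice it ran from 20.3 to 420 CPM, with a median of 101. At ZT4 the 4 WT mice had 77.5, 42.95, 56.8 and 31.1 CPM and the 4 KO mice had 182, 172.5, 164 and 129.7 CPM, so the groups did not overlap. At the other 5 times they did. Some time without overlap was found for 7 members, and the share of all genes without overlap is not given here. For Serpinb1a the KO mean was the higher one at 6 of 6 times. Means were 34.1 ± 22.7 CPM in WT and 117 ± 97.4 CPM in KO (SD over all times, n = 25 and 23), a log2 difference of 1.73 (SE 0.29, edgeR quasi-likelihood adjusted p = 0.000663). The highest KO value, 420 CPM, belonged to KO ZT16 replicate 3, a mouse of 105 weeks. The other KO mice of that time had 31.8 and 25.1 CPM. Without that library the difference was 1.32 and still passed (adjusted p = 0.00498). With body weight as a covariate it was 1.25 (SE 0.32) and no longer passed (adjusted p = 0.0795). In that fit 0.278% of all genes passed. The part of body weight in the difference was not tested.

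Neutrophils are the cells in which Serpinb1a is best known. None of 10 neutrophil markers passed the test in either direction, and 10 of 10 had a log2 difference below 0. For Mpo (-2.77, SE 1.43) the fitted sign was against its means of 1.149 ± 2.52 CPM in WT and 1.575 ± 7.28 CPM in KO (SD). The same held for Elane, as given below, so no direction is read from either. The summed level of the 10 markers ran from 9.64 to 1771 CPM in WT (median 65.4) and from 12.4 to 1767 CPM in KO (median 31.1). Within groups, the Pearson r of Serpinb1a with this summed level, in log2 units, was -0.26 over 48 libraries. Lcn2 was the most abundant marker in the sum. The part of neutrophils in the difference of Serpinb1a was not tested. The genes whose levels followed Serpinb1a most closely within groups were Fitm1, which acts in fat droplet formation, Hsd3b7, an enzyme of bile acid synthesis, and Tlcd2, with r of 0.73 each over 48 libraries.

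Serpine2 (mm9 chr1:79790772-79855271) encodes protease nexin-1, a secreted inhibitor of thrombin, urokinase and plasmin. WT mice ran from 2.35 to 18.35 CPM with a median of 5.83, and KO mice from 0.498 to 8.41 CPM with a median of 2.56. At ZT4 the WT mice had 3.91, 11.2, 2.69 and 2.58 CPM and the KO mice 1.32, 2.09, 0.986 and 1.31 CPM, with no overlap. The groups overlapped at the other times, and the KO mean was lower at 6 of 6. Means were 7.64 ± 4.74 CPM in WT and 3.09 ± 2.08 CPM in KO (SD, n = 25 and 23). The log2 difference was -1.27 (SE 0.22, edgeR quasi-likelihood adjusted p = 0.000899). With body weight as a covariate it was -0.95 (SE 0.25) and no longer passed (adjusted p = 0.0889).

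Markers of cells around the portal tract and on the liver surface had lower estimates in KO. Of 9 markers of portal fibroblasts and mesothelium, 2 fell in KO (Podn and Fbln2), none rose, and 9 of 9 had a log2 difference below 0. Their summed level ran from 8.78 to 34.8 CPM in WT (median 19.02) and from 6.34 to 28.1 CPM in KO (median 12.3). None of 11 stellate cell and fibroblast markers passed, 9 being below 0, and none of 9 markers of sinusoidal endothelium. The part of these cells in the lower Serpine2 was not tested. The genes most like Serpine2 within groups were Zfp821 (r = 0.59), Crhr2 (r = 0.57) and 5430417L22Rik (r = 0.56), each over 48 libraries.

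Serpina12 (mm9 chr12:105266979-105282653) encodes vaspin, a serpin first described as a product of visceral fat. It did not pass the threshold: the log2 difference was 0.79 (SE 0.24, edgeR quasi-likelihood adjusted p = 0.0805), with means of 4.43 ± 2.94 CPM in WT and 8.22 ± 5.05 CPM in KO (SD, n = 25 and 23). At ZT0 the WT mice had 1.5, 1.71, 1.18 and 5.54 CPM and the KO mice 11.2, 6.54, 11.4 and 19.1 CPM. At ZT4 the WT mice had 2.38, 1.07, 6.73 and 7.18 CPM and the KO mice 12.9, 17.95, 11.3 and 16.2 CPM. The groups did not overlap at these 2 times and did at the other 4. The lowest KO value, 0.552 CPM, was in KO ZT20 replicate 1, the library with high neutrophil markers, and without it the log2 difference passed the test. It also passed without WT ZT0 replicate 4, the highest WT mouse of its time. The lowest adjusted p with a library left out was 0.0306 and the highest 0.15.

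**Figure D2:**
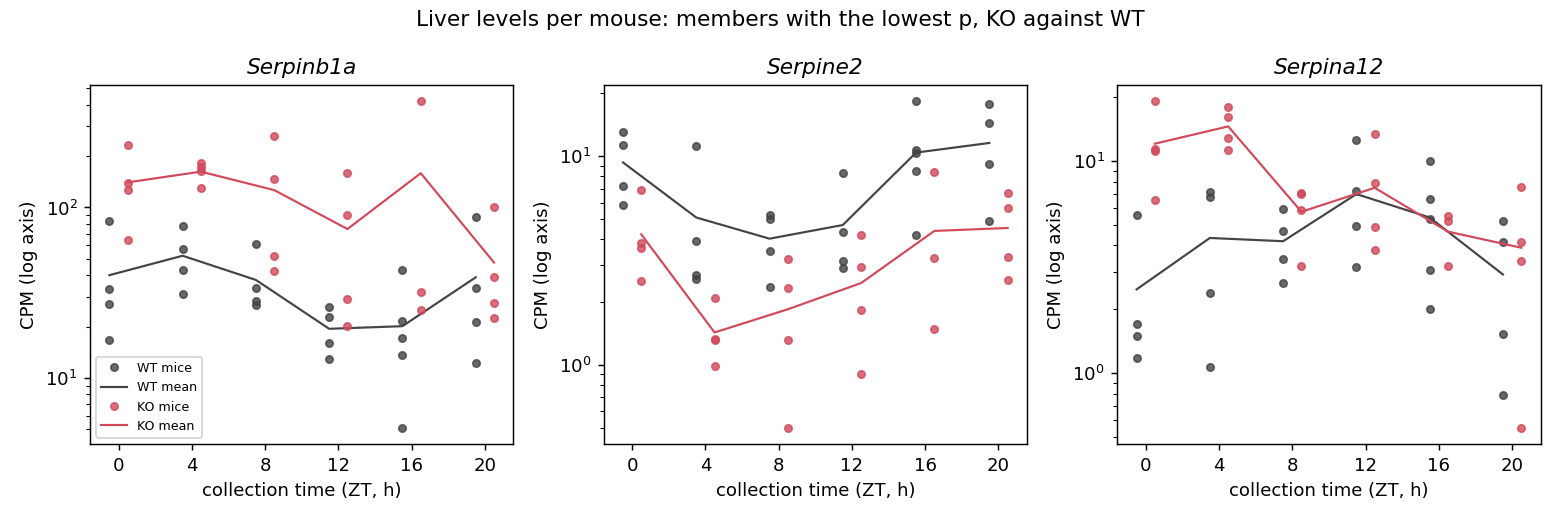
CPM of Serpinb1a, Serpine2 and Serpina12 in each mouse (points, log axis) against collection time in hours, with lines through the arithmetic group means (WT grey, KO red). WT and KO points do not overlap at ZT4 for Serpinb1a and Serpine2, and at ZT0 and ZT4 for Serpina12. The share of all genes without overlap is not given.

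The other members had adjusted p-values of 0.35 or more in the same test. Their log2 differences ran from -0.62 for Serpina1e (SE 0.45) to 0.35 for Serpina7 (SE 0.21). Several abundant plasma inhibitors were near 0. The log2 difference was 0.0071 for Serpinc1 (SE 0.057), -0.0035 for Serpina1a (SE 0.083), 0.017 for Serpina1d (SE 0.099), -0.014 for Serpinf2 (SE 0.13), 0.031 for Serping1 (SE 0.097) and 0.053 for Serpind1 (SE 0.076). Serpina3k, the second most abundant member, was further from 0 at -0.26 (SE 0.15). These standard errors show how small a difference the design could resolve for such genes. Serpinb9, an inhibitor of granzyme B, had a difference of 0.33 (SE 0.19), and the intracellular Serpinb6a and Serpinb8 had 0.052 (SE 0.11) and -0.033 (SE 0.12). The hormone carriers Serpina6 (corticosteroid-binding globulin) and Serpina7 (thyroxine-binding globulin) had 0.31 (SE 0.17) and 0.35 (SE 0.21). Serpinh1 (HSP47, a chaperone of collagen in the endoplasmic reticulum) had -0.090 (SE 0.12).

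**Figure D3:**
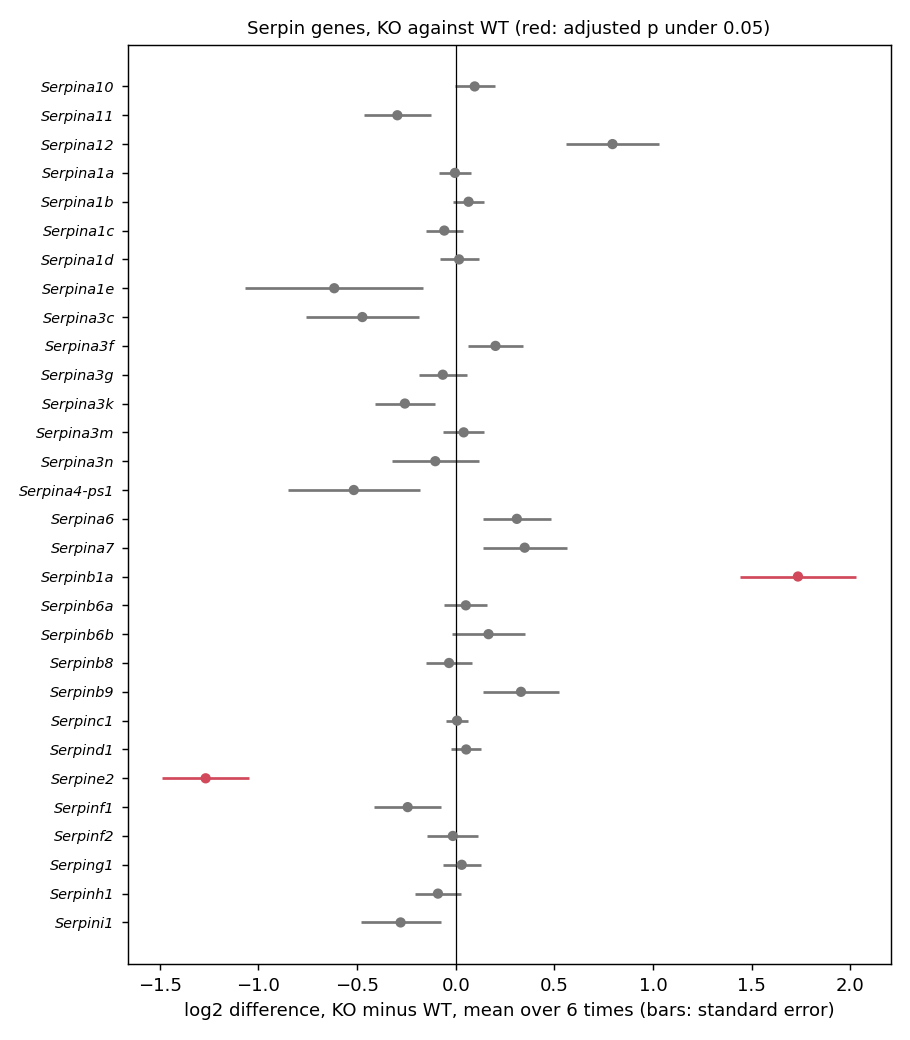
Log2 difference, KO minus WT as the mean over 6 times, for 30 Serpin genes in order of clade, with standard errors as bars. Red marks the 2 genes with an adjusted p under 0.05, Serpinb1a at 1.73 and Serpine2 at -1.27.

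At single times no member passed the edgeR quasi-likelihood test at any of the 6 times. All genes tested gave 0.0147% at ZT0, 0.0366% at ZT4, 0.022% at ZT16 and 0 at the other times. Unadjusted p-values under 0.05 were found for 4, 3, 4, 1, 4 and 2 members at ZT0 to ZT20 in order, where all genes gave 5.53%, 23.3%, 1.82%, 4.4%, 6.65% and 1.84%. DESeq2 passed 2 members at a single time: Serpine2 at ZT4 and Serpinb1a at ZT16, where its shares of all genes were 1.56% and 0.125%. For the interaction of genotype with time no member passed (lowest adjusted p = 0.953), against 0.00733% of all genes, with 2 members at an unadjusted p under 0.05 (3.28% of all genes). DESeq2 passed none for the interaction.

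The next question was which members followed a 24 h rhythm in fasted liver, from a cosine fitted in each genotype. In WT 5 of 30 members passed (edgeR's quasi-likelihood test, Benjamini-Hochberg adjusted), against 16.3% of all genes, and in KO 6, against 17% of all genes. Unadjusted p-values under 0.05 numbered 13 in WT and 9 in KO, where 31.5% and 34.3% of all genes had one. These shares are near the background. The WT count was 9 with DESeq2 and 9 with the GC slope as a covariate, where 19.8% and 29.7% of all genes passed. The KO count was 3 with body weight as a covariate, where 19.3% of all genes passed. The WT members were Serpinh1, Serpina4-ps1, Serpina6, Serpine2 and Serpina7, and the KO members were Serpina6, Serpinb8, Serpina7, Serpinh1, Serpine2 and Serpina3m. Thus 4 were called in both, and the share of all genes called in both is not given here. Those 4 peaked at different parts of the day. Amplitudes below are the distance from mean to peak in log2 units.

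Serpina7, the carrier of thyroid hormone (mm9 chrX:135613796-135619775), peaked earliest of the 4. Its fitted peak was at 5.75 h in WT (amplitude 0.80, SE 0.21, adjusted p = 0.0118) and at 6.29 h in KO (amplitude 1.01, SE 0.22, adjusted p = 0.00203). Mean levels ran from 22.7 CPM at ZT20 to 75.7 CPM at ZT8 in WT, and from 19.2 CPM at ZT20 to 90.2 CPM at ZT8 in KO. Single mice weighed heavily at ZT8, where the WT mice had 46.1, 163, 48.3 and 45.7 CPM and the KO mice 31.9, 188, 44.6 and 96.3 CPM. Without WT ZT8 replicate 2, the mouse at 163 CPM, the WT rhythm did not pass (edgeR quasi-likelihood adjusted p = 0.0719). With body weight as a covariate the KO rhythm did not pass (adjusted p = 0.0703).

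Serpina6 (mm9 chr12:104884840-104895422) carries glucocorticoids in plasma. It peaked at 13.1 h in WT (amplitude 0.70, SE 0.14, edgeR quasi-likelihood adjusted p = 0.00715) and at 10.9 h in KO (amplitude 0.996, SE 0.21, adjusted p = 0.000271). WT means ran from 206 ± 84.1 CPM at ZT0 to 489 ± 150.1 CPM at ZT12, and KO means from 223 ± 104.0 CPM at ZT0 to 756 ± 199 CPM at ZT8 (SD, n = 4 each). At ZT8 the WT mice had 548, 156, 266 and 532 CPM and the KO mice 578, 929, 590 and 927 CPM. The groups did not overlap there, with a log2 difference of 1.01 (SE 0.42) and an unadjusted p of 0.022 that did not pass after adjustment.

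Serpinh1 (mm9 chr7:106493885-106501740) peaked at 17.5 h in WT (amplitude 0.60, SE 0.11, edgeR quasi-likelihood adjusted p = 0.00049) and at 17.55 h in KO (amplitude 0.52, SE 0.14, adjusted p = 0.00578). At ZT16 the WT mice had 9.73, 8.37, 10.65, 10.8 and 19.3 CPM and the KO mice 12.7, 6.35 and 12.66 CPM. At ZT4 the WT mice had 4.14, 4.58, 5.68 and 5.09 CPM and the KO mice 4.05, 5.79, 4.19 and 2.63 CPM. In both genotypes every ZT16 mouse was above every ZT4 mouse of the same genotype. Of 9 collagen chains, the clients of this chaperone, 2 passed the rhythm test in WT (Col4a1 and Col1a2, adjusted p = 0.0151 and 0.0367) and 2 in KO (Col4a1 and Col14a1, adjusted p = 0.0142 and 0.0345), against the 16.3% and 17% of all genes given above.

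Serpine2 peaked latest, at 19.8 h in WT (amplitude 0.83, SE 0.20, edgeR quasi-likelihood adjusted p = 0.00804) and at 19.4 h in KO (amplitude 0.82, SE 0.23, adjusted p = 0.019). WT means ran from 4.03 ± 1.35 CPM at ZT8 to 11.6 ± 5.73 CPM at ZT20, and KO means from 1.43 ± 0.469 CPM at ZT4 to 4.53 ± 1.92 CPM at ZT20 (SD, n = 4 each). These amplitudes differed by less than the SE of either. The KO rhythm did not pass without KO ZT20 replicate 1 (adjusted p = 0.0515), or with body weight as a covariate (adjusted p = 0.111).

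Promoter sequence was found in the RefSeq table (GRCm38.p6) for 23 of 30 members, among them 3 of the 4 members rhythmic in both genotypes. These are shown because they are the members whose timing was called in both genotypes. Each is the stretch just upstream of the annotated start, 5′ to 3′ on the gene's strand, with the TATA box letters TATAAA in capitals where present.
Serpina7: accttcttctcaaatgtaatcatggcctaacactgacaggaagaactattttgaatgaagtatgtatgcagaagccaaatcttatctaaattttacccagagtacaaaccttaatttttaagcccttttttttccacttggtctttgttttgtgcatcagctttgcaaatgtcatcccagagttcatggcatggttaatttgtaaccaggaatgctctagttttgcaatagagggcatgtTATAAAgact
Serpine2: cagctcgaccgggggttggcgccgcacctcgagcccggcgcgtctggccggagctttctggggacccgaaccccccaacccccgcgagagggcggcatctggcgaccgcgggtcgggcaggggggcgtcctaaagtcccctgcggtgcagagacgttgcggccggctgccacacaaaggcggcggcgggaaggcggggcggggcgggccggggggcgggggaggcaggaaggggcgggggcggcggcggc
Serpinh1: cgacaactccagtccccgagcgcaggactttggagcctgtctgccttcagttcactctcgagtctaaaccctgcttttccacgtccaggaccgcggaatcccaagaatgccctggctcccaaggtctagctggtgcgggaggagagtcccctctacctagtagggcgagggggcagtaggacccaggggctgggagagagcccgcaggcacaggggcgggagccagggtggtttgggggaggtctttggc
They lie on the minus strand at chrX:139085237-139085486, chr1:79858666-79858915 and chr7:99353240-99353489. Both strands of windows of 300 bases around the start, most of it upstream, were searched for the E-box CACGTG, the D-box TTATGTAA, the ROR element AGGTCA, the heat shock element GAANNTTC and TATAAA. None of the first 4 was found in these 3 windows, and only Serpina7 held TATAAA, at bases -10 to -5 from this start. RefSeq lists for it another start 17 bases downstream, for which the match lies at -27 to -22. Of 32851 promoters, 7.15% held the E-box, 0.938% the D-box, 16.3% the ROR element, 7.86% the heat shock element and 13.6% TATAAA. These are matches of letters only.

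**Figure D4:**
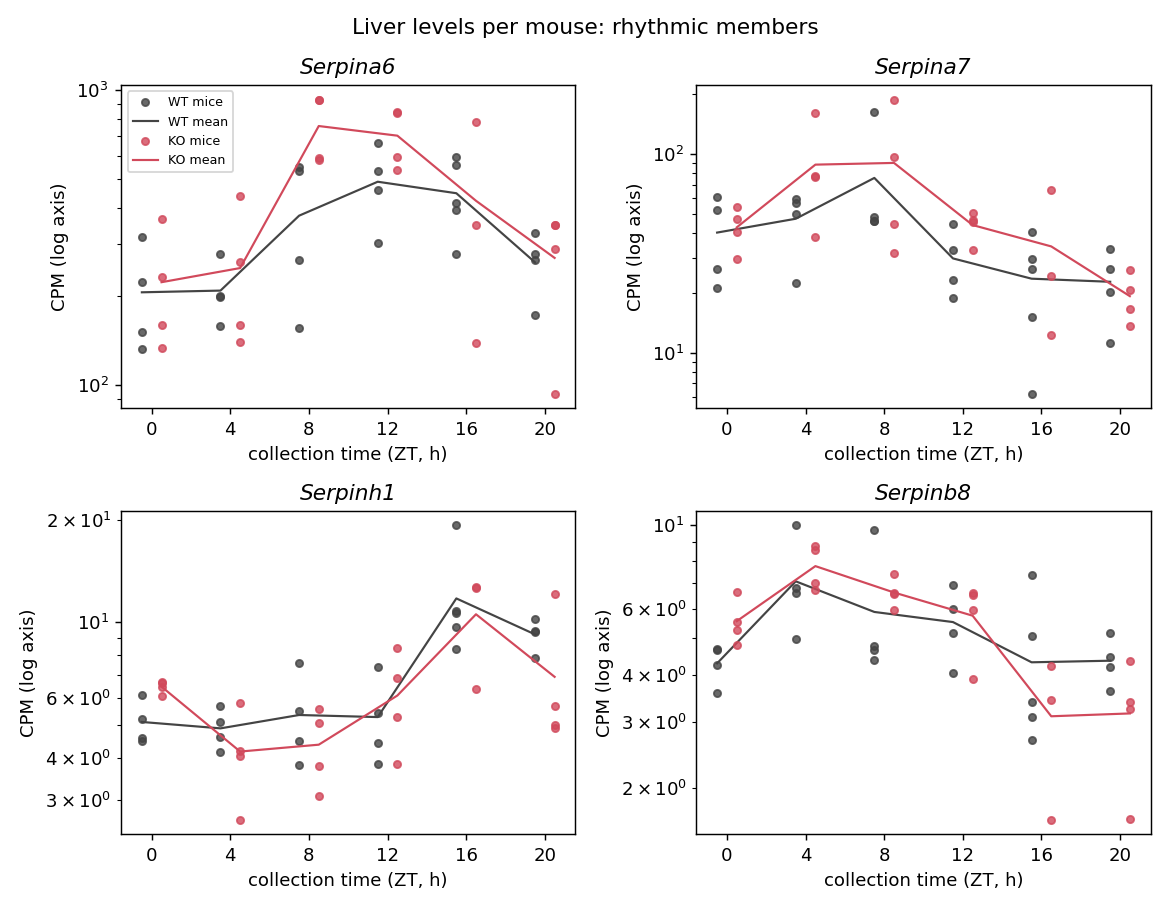
CPM of Serpina6, Serpina7, Serpinh1 and Serpinb8 in each mouse (points, log axis) against collection time in hours, with lines through the arithmetic group means (WT grey, KO red). Serpinb8 and Serpina7 have their high means at ZT4 or ZT8, Serpina6 at ZT8 or ZT12, and Serpinh1 at ZT16.

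Other members were called in 1 genotype. Serpina4-ps1 peaked at 14.35 h in WT (amplitude 1.22, SE 0.25, edgeR quasi-likelihood adjusted p = 0.0014), with 12.8, 5.19, 2.66, 7.30 and 1.66 CPM at ZT16 against 1.04, 1.1 and 0.0817 CPM in KO. Serpinb8, of the intracellular clade, peaked at 5.83 h in KO (amplitude 0.71, SE 0.11, adjusted p = 0.000531), with an adjusted p of 0.0721 in WT. The WT rhythm of Serpinb8 passed in DESeq2 (adjusted p = 0.043) and in edgeR with the GC slope as a covariate (adjusted p = 0.0284). At ZT4 the KO mice had 8.58, 7, 8.79 and 6.72 CPM of Serpinb8, all above the 4.24, 1.65 and 3.43 CPM of KO mice at ZT16. Serpina3m in KO had an amplitude of 0.38 (SE 0.12, adjusted p = 0.0434), a call lost when any of 14 of the 48 libraries was left out. The difference in rhythm itself passed for no member (lowest edgeR quasi-likelihood adjusted p = 0.9999), so none of these is shown to differ between genotypes. For it 0.00733% of all genes passed. An unadjusted p under 0.05 was found for 3 members against 2.66% of all genes: 0.0026 for Serpina12, 0.00442 for Serpina4-ps1 and 0.0404 for Serpina3c. DESeq2 passed none for it.

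The genes of the proteases and related inhibitors gave few calls over all times. Of 8 coagulation and kallikrein proteases, 6 genes of fibrinolysis, 6 granzymes and other intracellular proteases, 3 neutrophil proteases and 9 collagen chains, none passed in either direction (edgeR quasi-likelihood test). Their median log2 differences were -0.058, 0.037, 0.058, -1.54 and -0.25, against -0.0047 over all genes. The neutrophil proteases were near 0 in most libraries, with a median summed level of 0.25 CPM in WT and 0.23 CPM in KO. The gene with the smallest p was Klkb1, plasma kallikrein, at 0.16 (SE 0.096) among coagulation proteases and Plau, the urokinase that Serpine2 inhibits, at 0.49 (SE 0.17, adjusted p = 0.14) in fibrinolysis. It was Ctsl at -0.14 (SE 0.10) among intracellular proteases, Ctsg at -1.72 (SE 1.2) among neutrophil proteases, and Col6a1 at -0.59 (SE 0.16, adjusted p = 0.0556) among collagens. The fitted sign for Ctsg was against its means of 0.227 ± 0.662 CPM in WT and 0.313 ± 1.41 CPM in KO, and that for Elane (-1.54) against 0.672 ± 1.68 and 0.826 ± 3.52 CPM (SD, n = 25 and 23), so no direction is read from them. Of 7 complement proteases 1 fell: Masp1, a protease of the lectin pathway that C1 inhibitor restrains, by 0.25 in log2 units (SE 0.066, adjusted p = 0.0486). Of 19 protease inhibitors of other families 1 fell: Timp3, an inhibitor of matrix metalloproteases, from 37.9 ± 12.5 CPM in WT to 18.3 ± 7.62 CPM in KO (SD, n = 25 and 23; log2 difference -1.04, SE 0.12, adjusted p = 9.3e-07). Of 21 acute phase genes none passed, with 14 below 0.

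Some members of a subfamily tracked each other within groups, and others did not. After group means were removed from log2 CPM, Pearson r over 48 libraries was 0.93 for Serpina1a with Serpina1c, 0.86 for Serpina1b with Serpina1d and 0.83 for Serpina3f with Serpina3g. The r was 0.10 for Serpina1b with Serpina1e, 0.023 for Serpina3k with Serpina3n and -0.31 for Serpina3f with Serpina3n. The genes of the first 3 pairs share runs of 50 bases, but so do Serpina1b with Serpina1e and Serpina3f with Serpina3n. The part of shared sequence in these r was not tested. The r was 0.80 for Serpina3n with Serping1, which share no such sequence. Both were highest in WT ZT0 replicate 3, at 2536 and 1896 CPM, the library in which acute phase genes summed to 102300 CPM against 47670 CPM or less elsewhere. Serpinb6a followed the summed level of the Kupffer cell and macrophage markers (r = 0.79), Serpinb6b that of the stellate cell and fibroblast markers (r = 0.70), and Serpinh1 that of the collagen chains (r = 0.52). Abundant genes weigh most in such sums. These are descriptions over libraries that differ in GC slope, with which Serpinb6a and Serpinb6b had an r of -0.69 and -0.64. Its part in them was not tested.

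Body weight was set against the members within groups, since KO mice were heavier. No member passed (edgeR's quasi-likelihood test), and no gene of the table did. An unadjusted p under 0.05 was found for 6 members, against 6.57% of all genes, and DESeq2 passed no member either. The slope was 0.19 log2 units per gram for Serpinb1a (SE 0.074, adjusted p = 0.616), 0.088 for Serpinb8 (SE 0.031, adjusted p = 0.558) and -0.15 for Serpine2 (SE 0.063, adjusted p = 0.669).

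The GC slope of a library moved with several members. Pearson r with it, group means removed, was 0.93 for Serpinf1, 0.75 for Serpinf2 and 0.70 for Serpina11, whose transcripts hold 54.4%, 55.0% and 56.3% GC. It was -0.77 for Serpina3m and -0.69 for Serpinb6a, at 48.5% and 50.3% GC. In all, 4 of 30 members were above 0.5 and 6 below -0.5. The slope was itself fitted over 9634 genes, and the share of all genes beyond these limits is not given here. No trait of the family is read from these numbers. GC content alone did not order the members. The r of GC percent with their likeness to the slope was 0.46 over 30 genes, and Serpinh1, at 56.4% GC, was at -0.16. The 2 members that differed between genotypes were near 0: -0.11 for Serpinb1a and -0.0049 for Serpine2. They passed as well with the GC slope as a covariate (adjusted p = 0.00164 and 0.00136 in that order, edgeR quasi-likelihood test). Serpinf1 fell into a high and a low pair of mice at ZT0 in WT, with 774, 767, 325 and 388 CPM.

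**Figure D5:**
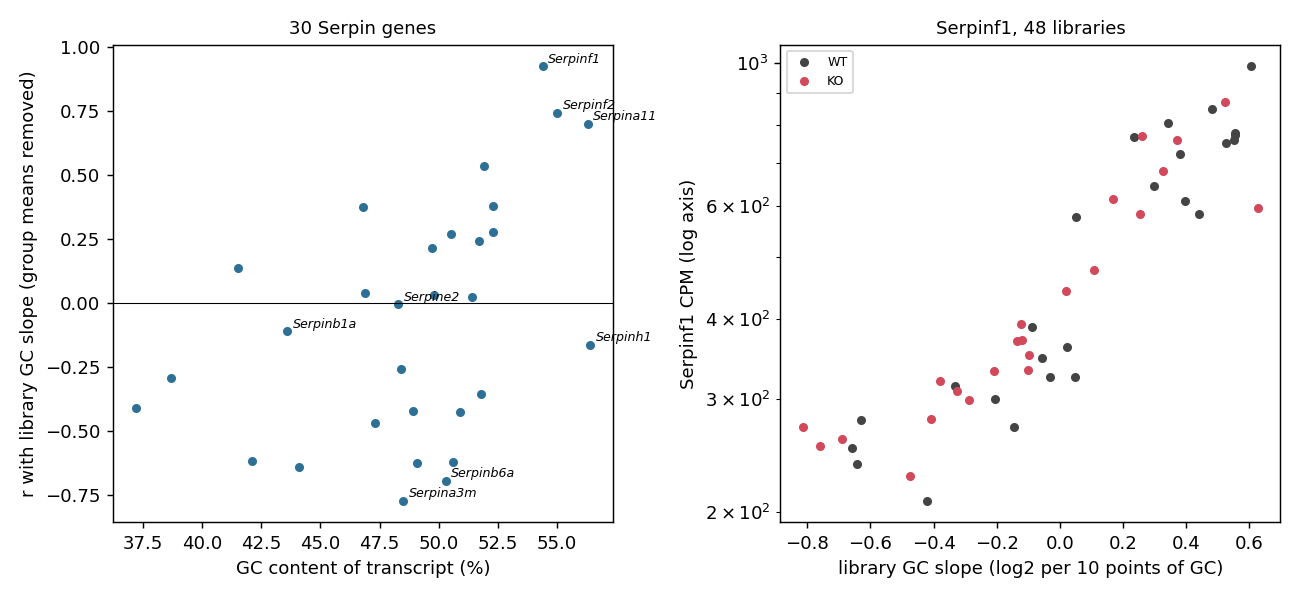
Left, Pearson r of each of 30 Serpin genes with the GC slope of the library (group means removed, 48 libraries) against the GC content of its transcript in percent. Right, Serpinf1 CPM (log axis) against the GC slope of each library, WT grey and KO red, for which r is 0.93 after group means are removed.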

How the data were processed

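PolyA RNA of 48 livers was prepared with a stranded TruSeq kit and 13 PCR cycles over several days, per the labels' protocols. Which library was made on which day is not given in the sources used here. CASAVA and STAR 2.4.1d were used on build mm9, per the submitters' processing notes. The counting program, annotation and any equalising of depth are not given in the sources used here. The file deposited by the authors holds read counts for each gene, with coordinates per the file headers. Alb, the 1 row the file marks as highly expressed, was left out of library sizes and tests.

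The fits used edgeR 4.0.16 in R 4.3.3 (filterByExpr, TMM scaling with factors 0.892 to 1.107, quasi-likelihood test). Of 22354 genes 13646 were tested, all 31 members among them. One of them is not reported here, and counts of members cover the other 30. A model with 12 group means gave KO minus WT over all times, at each time, and the interaction. A second model gave a mean, cosine and sine of 24 h per genotype. Adjustment was by Benjamini-Hochberg over all tested genes in each comparison, at a threshold of 0.05. CPM used TMM library sizes, and amplitudes used log2 CPM with a prior count of 2. Alternatives were DESeq2 1.42.0, its size factors, no count filter, body weight, age or GC slope as covariates, a replicate block, and leaving out single libraries. The GC slope alternatives were added after seeing the data. Transcript lengths, GC and shared runs of 50 bases came from GENCODE M21, with alignment by MAFFT 7.526. The script was tested on simulated data. p-values measure the spread between these mice. Members and gene lists were chosen with earlier results of these data known.

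Naming followed a rule: every member past a threshold and the most abundant member of each clade. It also took members rhythmic in both genotypes with an amplitude of at least 0.5. Each list of proteases, inhibitors and collagen chains gave up to 3 genes that passed, by smallest p, or else the 1 of smallest p. From lists of cell markers it took only genes that passed. Members called over all times gave the 3 most similar genes. Serpina12, Serpini2 and other members given as examples were chosen after their values were seen.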

Additional observations from a re-analysis of the deposited data

Results flagged for a closer look

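Dixon's test at 95%, in which chance flags about 1 in 20, was run on 165 groups of 4 or 5 mice, over 15 members. Single mice stood apart from the others in 14 of these groups. The other members were not examined in this way. Among those, Serpina3n was at 2536 CPM in WT ZT0 replicate 3, where the other mice had 461.7 to 620.2 CPM. Of the members that differed between genotypes, Serpine2 was at 11.16 CPM in WT ZT4 replicate 2. Serpina12, which did not pass between genotypes, was at 5.543 CPM in WT ZT0 replicate 4, where the other mice had 1.18 to 1.71 CPM. Each of these was the highest mouse of its group.

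Among rhythmic members, Serpina7 was at 162.9 CPM in WT ZT8 replicate 2, the mouse on which its WT call rests. Serpinh1 was at 19.31 CPM in WT ZT16 replicate 5 and at 12.12 CPM in KO ZT20 replicate 3. Serpinb8 was at 9.68 CPM in WT ZT8 replicate 1, and Serpina4-ps1 at 3.375 CPM in KO ZT8 replicate 4.

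Among the plasma inhibitors, Serpina1e was at 729.2 CPM in WT ZT16 replicate 4 and at 45.97 CPM in KO ZT8 replicate 1. Serpinc1 was at 2747 CPM in WT ZT20 replicate 3, above a tight set of 2458 to 2502. Low values were 567.9 CPM for Serpind1 in KO ZT8 replicate 4, 392 CPM for Serpinf2 in KO ZT20 replicate 3 and 550.6 CPM for Serping1 in WT ZT12 replicate 2. Serping1 was high at 1896 CPM in WT ZT0 replicate 3, the library in which acute phase and neutrophil markers were also highest.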

How the results depend on the processing

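Over all times, 2 members passed in every alternative except body weight as a covariate (0, with adjusted p = 0.0795 for Serpinb1a and 0.0889 for Serpine2) and DESeq2 (3, adding Serpina12 at adjusted p = 0.0366), and 2 to 3 passed with single libraries left out. The genes Serpinb1a and Serpine2 passed in 48 of 48 such fits. In WT, 9 members were rhythmic with DESeq2 (19.8% of all genes) and 9 with the GC slope as a covariate (29.7%), and 5 to 7 with single libraries left out. In KO, 3 were rhythmic with body weight as a covariate (19.3% of all genes), and 4 to 8 with single libraries left out. At single times, 2 members passed with DESeq2 (1.56% of all genes at ZT4 and 0.125% at ZT16), and 0 to 2 passed with single libraries left out: Serpine2 and Serpina12 at ZT4 without KO ZT4 replicate 1, and Serpinb1a at ZT16 without KO ZT16 replicate 1. For the interaction, the difference of rhythm and the slope on body weight the count was 0 in each of these. With the replicate block, 2 members passed over all times: Serpinb1a at 1.48 (adjusted p = 0.0309) and Serpine2 at -1.29 (adjusted p = 4.96e-05), with 127 genes passing in all against 191 without it. Same-numbered mice had the same age in 22 of 23 pairs, but their deviations from group means correlated at -0.49 to 0.60 (median 0.16, 14 pairs over 0.1). They thus mostly share an age as well as a number, and the main model has no block. Over all times, 191 genes of the table passed, against 356 with DESeq2, 122 without a count filter, 38 with body weight and 63 without the 2 libraries of lowest GC slope. Of 938 other values, none reversed, 23 no longer passed and 7 newly passed. The cause of the changes was not tested. Serpini1, with 4.92 counts per library, is limited by depth.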

Other observations

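Age was set against the members within groups, an alternative added after seeing the data. No member passed (edgeR quasi-likelihood test), against 0.0366% of all genes, and 7 members had an unadjusted p under 0.05, against 6.05% of all genes. The slopes with the smallest p were 0.32 log2 units per 10 weeks for Serpinb1a (SE 0.087, adjusted p = 0.284) and 0.20 for Serpine2 (SE 0.06, adjusted p = 0.405). Serpina3k, Serpina7, Serpina1e, Serpinb8 and Serpinf2 were the others with such a p, and had slopes of -0.11, 0.17, -0.39, 0.078 and 0.082 in that order. With age as a covariate the KO minus WT differences were 1.67 for Serpinb1a (adjusted p = 0.000193) and -1.27 for Serpine2 (adjusted p = 0.000206).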
